A study of Homo sapiens with 6 samples.

Results

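The keratin family was examined in MCF10A-HER2/3 cells, a derivative of the non-tumorigenic human mammary epithelial line MCF10A, in which the tyrosine phosphatase SHP2 (gene PTPN11) was targeted. Members were the probe sets whose only annotated symbol was KRT followed by a number up to 86 and at most 1 letter, without pseudogenes. The probe set with the highest mean was kept for each gene. This gave 47 keratin genes among the 18377 genes measured, out of 54 keratin genes in the class scheme used. KRT6A, KRT6B, KRT6C, KRT17, KRT81, KRT82 and KRT86 were not analysed here. The cells were grown in three-dimensional culture for 15 days and profiled on 6 Affymetrix HuGene-1_0-st-v1 arrays, which measure whole transcripts in 1 colour. The 3 groups, with 2 arrays each, carried an inducible lentiviral construct for SHP2 miR2, for SHP2 miR1 or for a control miR (CTRL miR). All 3 groups, controls included, were MCF10A-HER2/3 cells, received doxycycline from the day after seeding with renewal every 2 days, and were fed medium with EGF, insulin, cholera toxin, hydrocortisone and horse serum. All arrays come from this 1 line, and the labels do not state whether both arrays of a group hold separate cultures. The p-values therefore reflect only how these arrays vary, and that variation may be technical.

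Keratins are the intermediate filament proteins of epithelial cells. A filament is built from pairs of 1 acidic type I keratin and 1 basic type II keratin, so the genes are usually read in partner pairs. In stratified epithelia KRT5 and KRT14 mark the basal layer, KRT1 and KRT10 the layers above it, KRT8, KRT18 and KRT19 simple and luminal epithelium, and KRT6 and KRT16 injured or hyperproliferative epithelium. In the mammary gland KRT5 and KRT14 are associated with the basal layer and KRT8 and KRT18 with the luminal layer. The hair keratins serve the hair shaft and its sheath. Apart from KRT18, the type I genes lie in a cluster on chromosome 17, and the type II genes lie with KRT18 in a cluster on chromosome 12.

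The promoters of KRT10 and of its neighbour KRT12 are shown because the first gene had the largest difference of the family and the second, next to it in the cluster, did not pass the test. Both run 5′ to 3′ on the minus strand of GRCh38.p14, from 250 bases before to 50 bases after the RefSeq start. The KRT10 promoter is at chr17:40822565-40822864 and the KRT12 promoter at chr17:40867174-40867473. Capitals mark the letters TATAAA, searched on both strands.
KRT10: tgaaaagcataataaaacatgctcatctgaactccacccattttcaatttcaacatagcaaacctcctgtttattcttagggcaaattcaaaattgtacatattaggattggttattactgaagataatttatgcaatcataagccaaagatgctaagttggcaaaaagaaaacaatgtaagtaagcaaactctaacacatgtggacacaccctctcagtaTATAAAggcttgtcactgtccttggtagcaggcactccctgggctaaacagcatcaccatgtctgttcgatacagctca
KRT12: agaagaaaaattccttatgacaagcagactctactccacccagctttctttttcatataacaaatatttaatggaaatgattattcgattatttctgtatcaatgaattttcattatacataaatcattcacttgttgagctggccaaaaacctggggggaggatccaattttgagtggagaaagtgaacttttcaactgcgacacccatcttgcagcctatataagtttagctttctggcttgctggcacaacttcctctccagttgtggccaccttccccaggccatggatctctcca
In the KRT10 window TATAAA began 29 bases before the start, and the KRT12 window held no match. Only these exact letters were searched, and the KRT12 window does hold the similar letters tatataag. A promoter was available for 33 of the 47 keratins, and 20 of them (60.6%) held TATAAA, beside 11.6% of all 34796 promoters in the table. The keratin share counts genes with a match in any of their promoters. The other share counts single promoters, so the units differ. KRT14, KRT15 and KRT16 were not among these 33. The letters TGANTCA, also searched on both strands, were in the promoters of 0 of the 33 keratins and in 7.73% of all promoters. These matches describe letters in the window and say nothing of binding.

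PTPN11 was checked first. Its log2 values were 6.90 and 7.28 with SHP2 miR2 and 6.04 and 5.71 with SHP2 miR1, against 7.96 and 8.44 with CTRL miR, so all 4 SHP2 miR arrays lay below both controls. The average difference was -1.72 (adjusted p = 0.00184). SHP2 miR2 alone gave -1.11, which did not pass (adjusted p = 0.0813), and SHP2 miR1 alone gave -2.32 (adjusted p = 0.000548).

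The keratins that changed were 4 type I genes, and all of them rose: KRT10 of the suprabasal layers, the stress keratin KRT16, and the basal keratins KRT15 and KRT14. Averaged over both SHP2 miRs, 4 of 47 keratins (8.51%) were higher and 0 were lower at an adjusted p under 0.05 in limma, where 4.20% of all genes passed, 1.53% higher and 2.67% lower. At an unadjusted p under 0.05, 7 of 47 keratins were higher and 0 were lower, beside 1528 and 2311 of all 18377 genes. At that threshold 944 of all genes were higher and 1081 lower with SHP2 miR2, and 2228 and 2941 with SHP2 miR1. The same 4 keratins passed at the adjusted threshold in each SHP2 miR taken alone, and 0 keratins were lower. With SHP2 miR2, 0.370% of all genes passed, 0.190% higher and 0.180% lower. With SHP2 miR1, 8.60% of all genes passed, 2.66% higher and 5.94% lower. Both comparisons use the same CTRL miR arrays. With SHP2 miR2 alone, 0 of the 4 calls held without the second SHP2 miR2 array or without either CTRL miR array, and 1 (KRT10) held without the first SHP2 miR2 array. Over all genes these fits made 0 to 4 calls. The other 43 keratins had average differences between -0.13 and 0.45 on the log2 scale, with a smallest adjusted p of 0.138. The median average difference was 0.14 over the 47 keratins and 0.02 over all genes. In RNA from whole cultures, a larger share of cells with a transcript and more transcript per cell cannot be told apart.

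**Figure D1:**
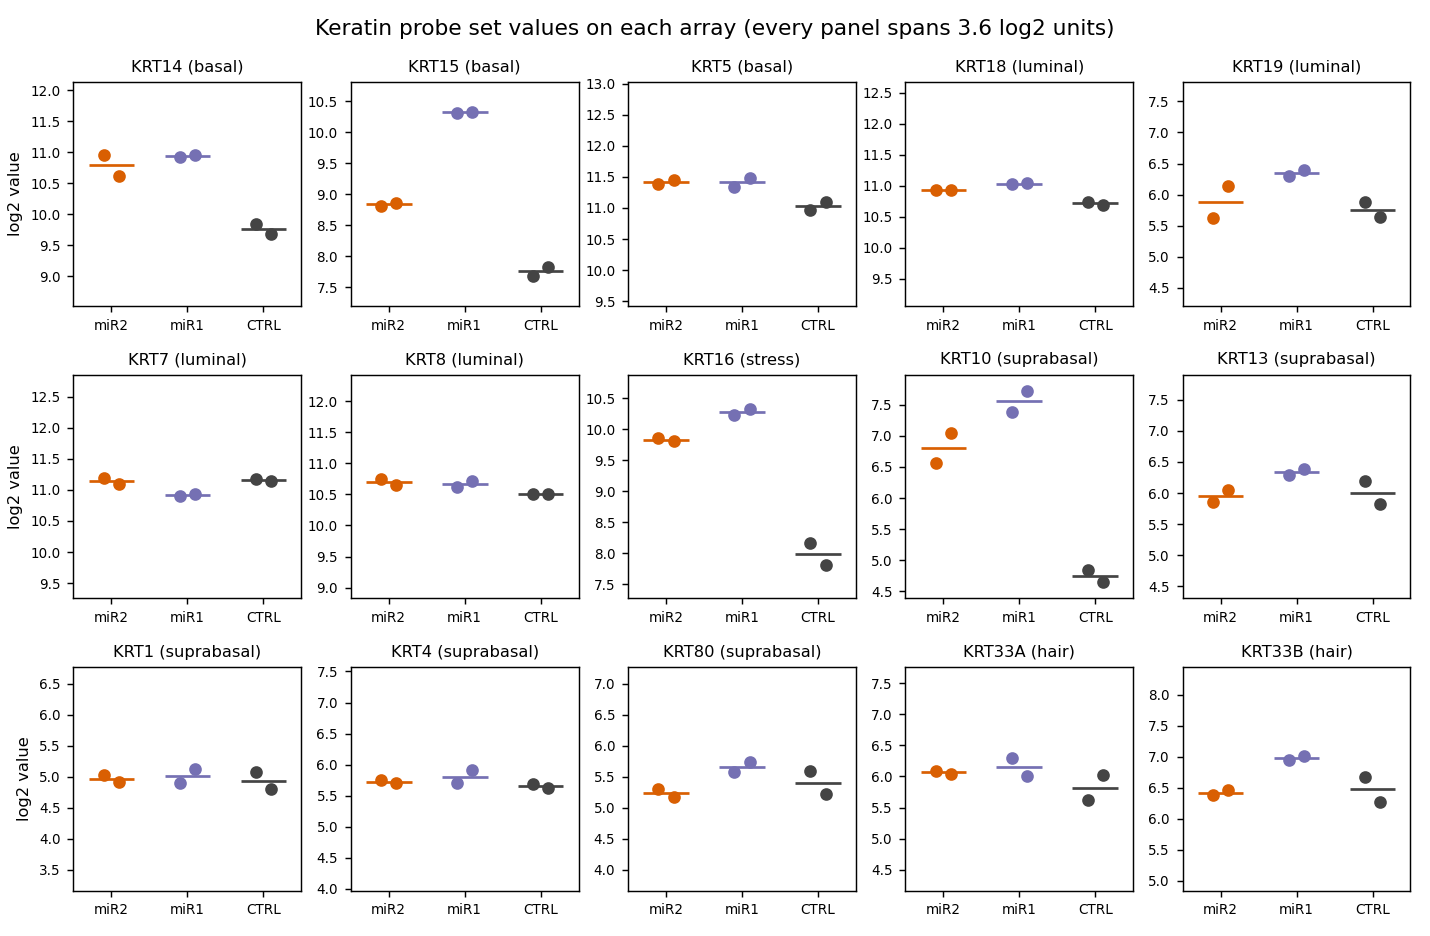
Deposited log2 values (y axis) of the 15 keratins named with values, 1 panel a gene, grouped as SHP2 miR2, SHP2 miR1 and CTRL miR, with a point per array and a line at the group mean. The panels have different y ranges of equal height. KRT10, KRT14, KRT15 and KRT16 lie above both controls on all 4 SHP2 miR arrays, and KRT15 with SHP2 miR1 lies above SHP2 miR2.

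All 3 basal keratins were measured, and 2 of them rose. KRT14, the type I keratin of basal cells, had log2 values of 10.96 and 10.62 with SHP2 miR2 and 10.93 and 10.96 with SHP2 miR1, against 9.85 and 9.69 with CTRL miR. The groups did not overlap, and the 4 SHP2 miR arrays lay within a narrow range. KRT14 was 2.14-fold higher on average (log2 difference 1.10, SE 0.14, adjusted p = 0.00440), with 1.02 for SHP2 miR2 (adjusted p = 0.0463) and 1.17 for SHP2 miR1 (adjusted p = 0.00455). Without the second CTRL miR array the average call was lost (adjusted p = 0.0855), as was that for SHP2 miR1 (adjusted p = 0.0585).

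KRT15, a type I keratin of basal cells and hair follicle stem cells, had log2 values of 8.81 and 8.86 with SHP2 miR2 and 10.31 and 10.32 with SHP2 miR1, against 7.69 and 7.83 with CTRL miR. The 3 groups formed 3 separate levels, with SHP2 miR2 between the others. KRT15 was 3.53-fold higher on average (log2 difference 1.82, SE 0.13, adjusted p = 0.000203), with 1.08 for SHP2 miR2 (adjusted p = 0.0210) and 2.56 for SHP2 miR1 (adjusted p = 5.27e-05).

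KRT5, the type II partner of KRT14, had log2 values of 11.39 and 11.46 with SHP2 miR2 and 11.34 and 11.48 with SHP2 miR1, against 10.97 and 11.10 with CTRL miR. All 4 SHP2 miR arrays lay above both controls, but the difference of 0.38 (95% interval 0.09 to 0.68) did not pass over all genes (adjusted p = 0.138). It passed when the spread was allowed to vary with the level of a gene (adjusted p = 0.000350). The median difference of the 3 basal keratins was 1.10.

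KRT16, induced in wounded and hyperproliferative epithelium, was the only 1 of 5 stress keratins measured here, and it rose. Its log2 values were 9.85 and 9.81 with SHP2 miR2 and 10.23 and 10.33 with SHP2 miR1, against 8.16 and 7.82 with CTRL miR. Both SHP2 miR1 arrays were highest and both controls lowest, with no overlap. KRT16 was 4.19-fold higher on average (log2 difference 2.07, SE 0.14, adjusted p = 0.000203), with 1.84 for SHP2 miR2 (adjusted p = 0.00442) and 2.29 for SHP2 miR1 (adjusted p = 0.000189). The annotation also holds a probe set that names KRT16 together with its pseudogenes, so near-identical copies may share signal with KRT16.

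Of 14 suprabasal keratins 1 rose. KRT10, the type I keratin of cells that have left the basal layer, had log2 values of 6.56 and 7.04 with SHP2 miR2 and 7.38 and 7.73 with SHP2 miR1, against 4.84 and 4.64 with CTRL miR. The SHP2 miR1 arrays were highest and the controls lowest, with no overlap. The CTRL miR mean of 4.74 was below 4.76, the value at or below which the dimmest 40% of probe sets lie. The fold changes of KRT10 are thus taken against control values near the dim end of the array, where arrays tend to understate a fold. KRT10 was 5.42-fold higher on average (log2 difference 2.44, SE 0.18, 95% interval 2.04 to 2.83, adjusted p = 0.000223). The difference was 2.06 for SHP2 miR2 (4.17-fold, adjusted p = 0.00520) and 2.82 for SHP2 miR1 (7.04-fold, adjusted p = 0.000189).

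KRT1, the type II partner of KRT10 in the epidermis, showed no such difference. Its log2 values were 5.02 and 4.92 with SHP2 miR2 and 4.90 and 5.12 with SHP2 miR1, against 5.07 and 4.80 with CTRL miR, and the groups overlapped. The difference was 0.05 (95% interval -0.27 to 0.38, adjusted p = 0.863). KRT13 and KRT4, the pair of the layers above the basal cells in mucosal epithelium, had differences of 0.14 (adjusted p = 0.647) and 0.11 (adjusted p = 0.663). KRT80 had 0.05 (adjusted p = 0.896), and the median over the 14 suprabasal keratins was 0.09, with 5 of them dim.

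None of the 6 luminal and simple-epithelial keratins passed the test in limma. On average 0 had an unadjusted p under 0.05, beside 3839 of all 18377 genes. With SHP2 miR1 alone 1 luminal keratin did (KRT19), beside 5169 of all genes. KRT18 had log2 values of 10.94 and 10.93 with SHP2 miR2 and 11.03 and 11.04 with SHP2 miR1, against 10.74 and 10.69 with CTRL miR. These did not overlap, but the difference of 0.27 did not pass (95% interval -0.01 to 0.55, adjusted p = 0.254). It passed when the spread was allowed to vary with level (adjusted p = 0.00429). A second KRT18 probe set, with a lower mean, had a difference of 0.09 and groups that overlapped. The separation of the groups was thus not shared by both KRT18 probe sets. Every other KRT18 value, count and ratio given here uses the probe set with the higher mean. Which of the probe sets reports KRT18 better was not tested. KRT8, the type II partner of KRT18, had log2 values of 10.75 and 10.65 with SHP2 miR2 and 10.63 and 10.72 with SHP2 miR1, against 10.50 and 10.51 with CTRL miR, a difference of 0.18 (adjusted p = 0.452).

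KRT7, of simple and ductal epithelium, had log2 values of 11.20 and 11.09 with SHP2 miR2 and 10.91 and 10.94 with SHP2 miR1, against 11.18 and 11.14 with CTRL miR. The SHP2 miR2 arrays overlapped the controls and both SHP2 miR1 arrays lay below them, with an average difference of -0.13 (adjusted p = 0.606). KRT19, which lacks most of the tail domain of other keratins, had log2 values of 5.62 and 6.14 with SHP2 miR2 and 6.29 and 6.40 with SHP2 miR1, against 5.88 and 5.64 with CTRL miR. On average KRT19 was 0.35 above the controls (adjusted p = 0.278), by 0.12 in SHP2 miR2 and by 0.59 in SHP2 miR1 cells (adjusted p = 0.0982). KRT20 and KRT23 were dim on these arrays, and the median over the luminal keratins was 0.14.

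Hair keratins made up 23 of the 47 genes, 14 of them dim, and none passed the test in limma. On average 2 of the 23 were higher and 0 were lower at an unadjusted p under 0.05. At that threshold 1528 of all 18377 genes were higher and 2311 lower. Of all 5330 dim genes 459 were higher and 162 lower. The average differences of the hair keratins ran from -0.05 to 0.45, with a median of 0.12. The median was 0.09 over all dim genes, -0.03 over all genes that were not dim and 0.02 over all genes. KRT33B had log2 values of 6.38 and 6.46 with SHP2 miR2 and 6.94 and 7.01 with SHP2 miR1, against 6.67 and 6.27 with CTRL miR. The SHP2 miR2 arrays lay between the controls and both SHP2 miR1 arrays above them. The difference was 0.22 (adjusted p = 0.423). KRT33A, its near-identical neighbour, had 0.29 (adjusted p = 0.338), and signal may be shared between this pair.

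**Figure D2:**
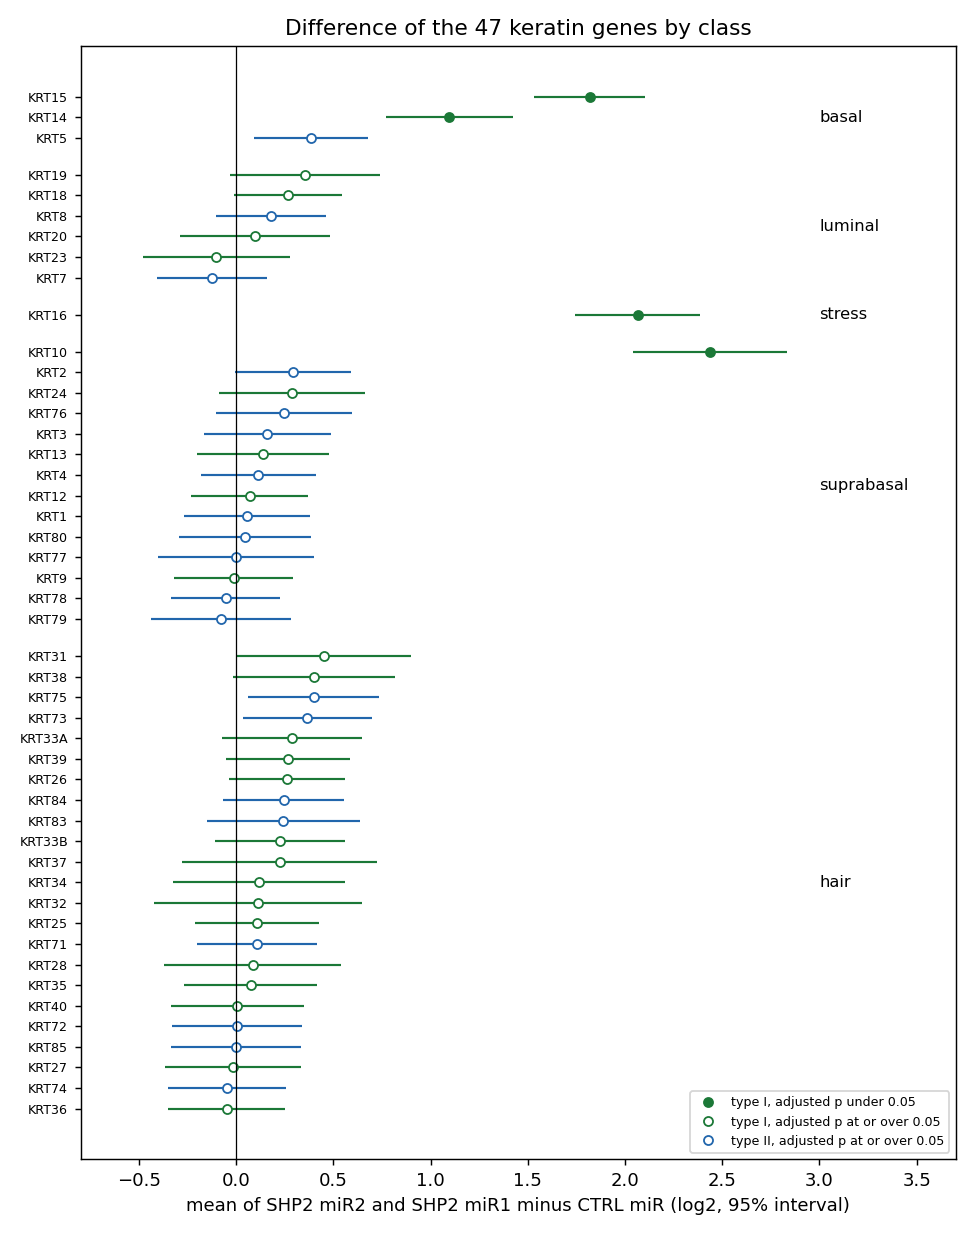
Log2 difference of the mean of both SHP2 miRs minus CTRL miR (x axis) for each keratin gene (rows, by class), with 95% intervals of the limma fit. Green marks type I and blue type II, and filled points passed. The 4 genes that passed lie between 1.10 and 2.44, and the other 43 lie between -0.13 and 0.45.

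All 4 SHP2 miR arrays lay above both controls for 15 of 47 keratins (31.9%), against 12.6% of all genes. They lay below both controls for 0 keratins, against 13.6% of all genes. Among keratins that were not dim, 12 of 26 (46.2%) lay above, beside 12.1% of all genes that were not dim. Among dim keratins it was 3 of 21 (14.3%), close to the 13.7% of all dim genes. Whether keratins differ from other genes in this respect was not tested. These 15 include KRT5, KRT8 and KRT18, whose differences did not pass.

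By type, 4 of 27 type I keratins (14.8%) rose and 0 of 20 type II keratins, where 1.53% of all genes were higher. Of the 20 type II genes 3 (KRT5, KRT73 and KRT75) had an unadjusted p under 0.05, all higher. At that threshold 1528 of all 18377 genes were higher and 2311 lower. KRT5 (type II) and KRT18 (type I) passed when the spread was allowed to vary with level. The type II genes KRT6A, KRT6B, KRT6C, KRT81, KRT82 and KRT86 and the type I gene KRT17 are missing from these counts. The median difference was 0.22 over type I and 0.11 over type II genes, and the difference between the types was not tested. All 4 genes that rose are on chromosome 17, where 26 of 27 keratin genes were measured. None of the 21 measured of 27 on chromosome 12 passed. KRT10 is flanked by KRT28 (0.08) and KRT12 (0.07), whose promoter is printed above, in the order of the RefSeq annotation. Further along, KRT15 lies between KRT13 (0.14) and KRT19 (0.35), and KRT14 and KRT16 are adjacent, with KRT9 (-0.01) on the other side of KRT14.

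**Figure D3:**
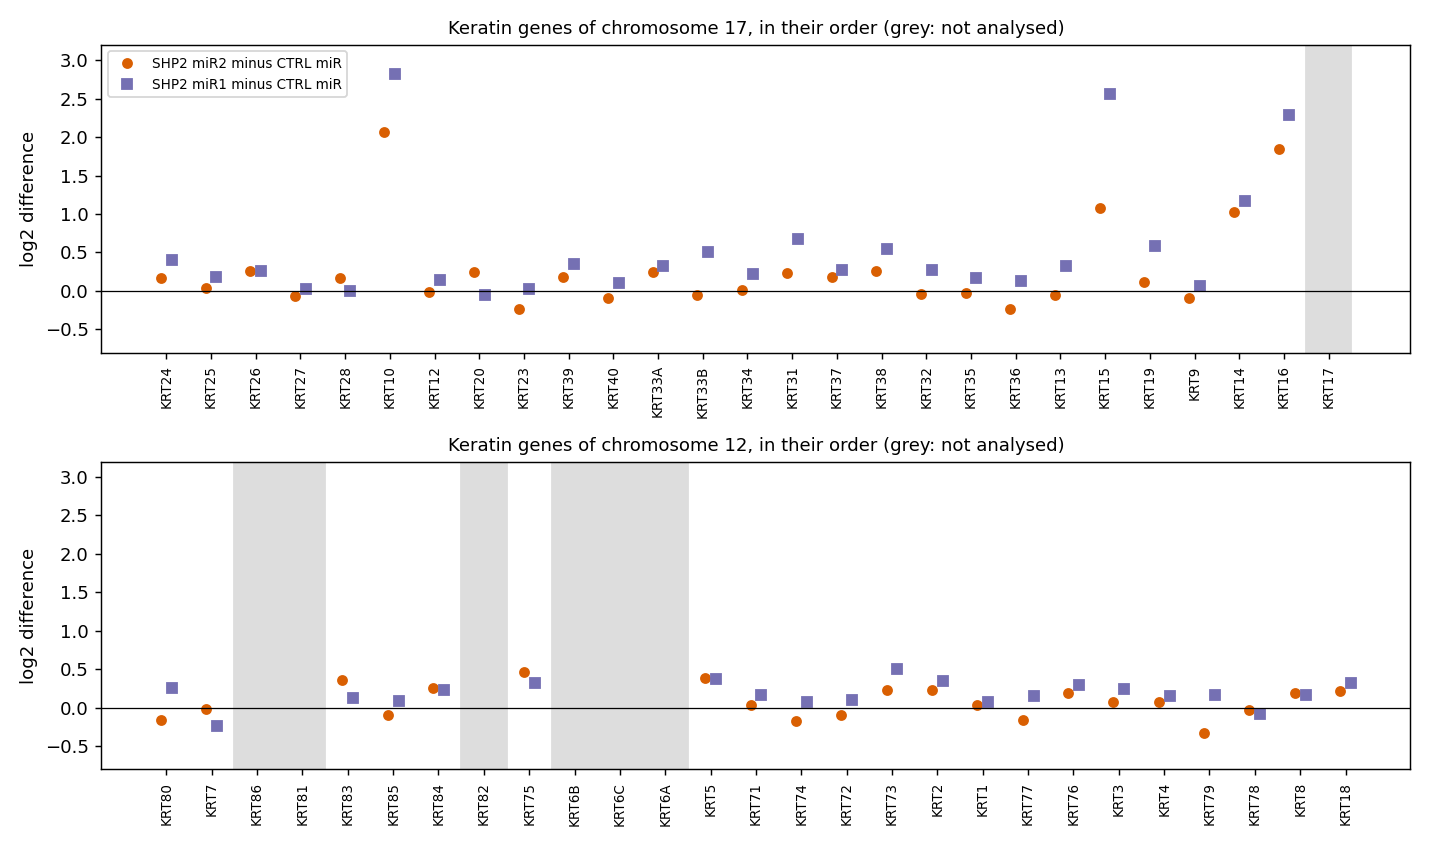
Log2 difference of SHP2 miR2 minus CTRL miR (circles) and SHP2 miR1 minus CTRL miR (squares) for keratin genes in their order along chromosomes 17 and 12, spaced evenly and not by distance, with genes not analysed in grey. KRT10, at 2.06 and 2.82, stands between KRT28 and KRT12, whose points lie near 0.

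Partner balance was read as the log2 ratio of the type I over the type II probe set on the same array, which can shift between groups but has no meaning as a stoichiometry. For KRT10 over KRT1 it was 1.54 and 2.12 with SHP2 miR2 and 2.48 and 2.60 with SHP2 miR1, against -0.24 and -0.16 with CTRL miR. The shift was 2.38, and every SHP2 miR array lay above both controls. For KRT14 over KRT5 it was -0.43 and -0.84 with SHP2 miR2 and -0.42 and -0.52 with SHP2 miR1, against -1.12 and -1.41 with CTRL miR, a shift of 0.71 with no overlap.

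For 4 arrays against 2 the smallest two-sided p an exact permutation test can give is 0.0667. Both pairs reached it, which is 0.133 after Benjamini-Hochberg adjustment over the 4 pairs computed. For KRT10 over KRT1 this follows from the separation of the KRT10 values alone. The KRT14 gap between the controls and the SHP2 miR arrays (9.85 to 10.62) was also wider than the whole KRT5 range (10.97 to 11.48). The KRT14 over KRT5 ratios thus had to separate too. Neither ratio is separate support for the calls of KRT10 and KRT14. KRT18 over KRT8 shifted by 0.09 (exact permutation p = 0.267) and KRT13 over KRT4 by 0.02 (exact permutation p = 1.0). The KRT6A and KRT16 pair was not analysed here.

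**Figure D4:**
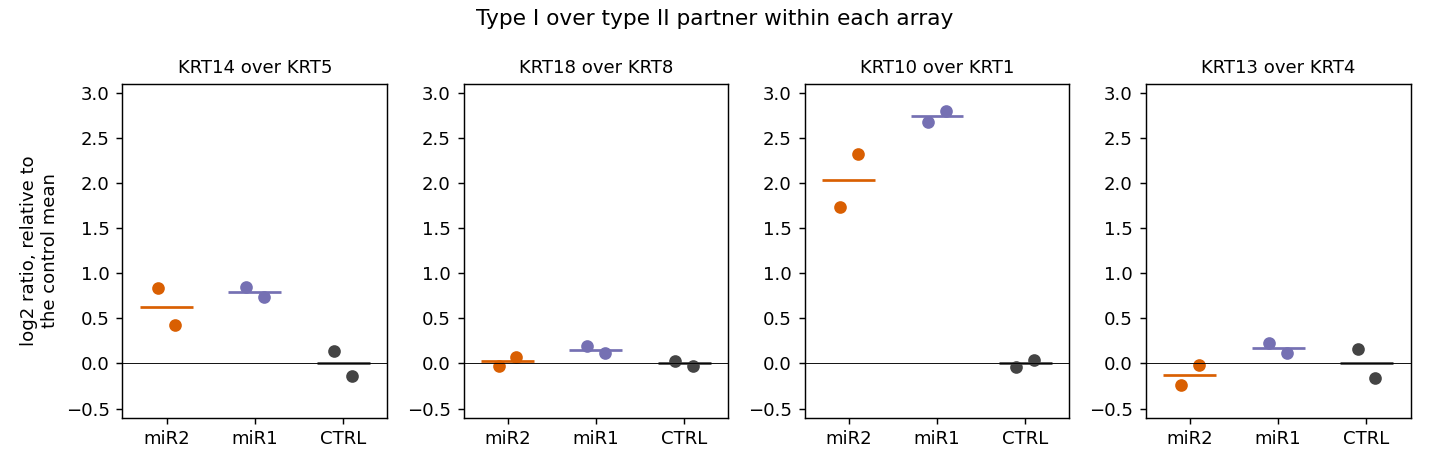
Log2 ratio of the type I over the type II probe set on each array for 4 partner pairs, drawn relative to the CTRL miR mean of the pair, with the groups SHP2 miR2, SHP2 miR1 and CTRL miR side by side and a line at each group mean. For KRT10 over KRT1 the 4 SHP2 miR arrays lie far above both controls, with a mean shift of 2.38.

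Between the SHP2 miRs, 1 of 47 keratins was lower with SHP2 miR2 than with SHP2 miR1 and 0 were higher, where 0.0381% of all genes were lower and 0.152% were higher. That gene was KRT15, 2.79-fold lower with SHP2 miR2 (log2 difference -1.48, SE 0.15, 95% interval -1.81 to -1.15, adjusted p = 0.00545). This call was lost without the second SHP2 miR1 array (adjusted p = 0.0507) and without the first or the second SHP2 miR2 array (0.0878 and 0.0762). KRT10 differed by -0.75 (95% interval -1.21 to -0.30, adjusted p = 0.139) and KRT16 by -0.45 (adjusted p = 0.220), neither of which passed. KRT14 differed by -0.15 (adjusted p = 0.647). PTPN11 itself differed by 1.21 in the opposite direction (adjusted p = 0.0645), and the part of its level in the KRT15 difference was not tested.

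Proteins that anchor or bundle keratin filaments, such as plakins and filament-binding partners, showed 1 higher and 0 lower of 14 measured on average, where 4.20% of all genes passed. With SHP2 miR2 alone 0 passed (PPL had an adjusted p of 0.0749), with 1 higher and 1 lower at an unadjusted p under 0.05. At that threshold 944 of all 18377 genes were higher and 1081 lower with SHP2 miR2. With SHP2 miR1 alone 2 of the 14 passed, both higher. PPL, which encodes periplakin, a linker of filaments to desmosomes and the cell cortex, had log2 values of 7.57 and 7.57 with SHP2 miR2 and 7.89 and 7.96 with SHP2 miR1, against 6.75 and 6.87 with CTRL miR. It was higher by 0.94 (adjusted p = 0.00464), and the call was lost without either CTRL miR array (adjusted p = 0.0566 and 0.0558). The list's median was 0.11. Of 15 other intermediate filament genes none passed in limma on average, with 1 higher and 1 lower at an unadjusted p under 0.05. On average 1528 of all 18377 genes were higher and 2311 lower at that threshold. VIM, the filament gene of mesenchymal cells that MCF10A cells also express, averaged 0.43 below the controls (log2 difference -0.43, adjusted p = 0.114), and SHP2 miR1 cells alone had -0.60 (adjusted p = 0.0432), a call that was lost without any single array (adjusted p of up to 0.221).

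Of 22 measured regulators known to act on keratin genes or on epithelial differentiation, 4 were higher and 1 was lower on average, with a median of 0.21, where 1.53% of all genes were higher and 2.67% were lower. With SHP2 miR2 alone 1 was higher and 1 was lower (EHF and PRDM1), and NOTCH1 (adjusted p = 0.191) and OVOL1 (adjusted p = 0.251) did not pass. With SHP2 miR1 alone 5 were higher and 1 was lower. EHF, an epithelial ETS factor, had log2 values of 5.42 and 5.76 with SHP2 miR2 and 6.31 and 6.55 with SHP2 miR1, against 4.37 and 4.21 with CTRL miR, a difference of 1.72 (adjusted p = 0.000781). The CTRL miR means of EHF (4.29) and OVOL1 (4.40) lay below the dim value of 4.76, so the sizes of these differences rest on control values near the dim end of the array. NOTCH1, a receptor that promotes the exit of keratinocytes from the basal layer, was higher by 0.80 (adjusted p = 0.0167), and OVOL1, a zinc finger transcription factor of epithelial differentiation, by 0.65 (adjusted p = 0.0316). PRDM1, the repressor BLIMP1, had log2 values of 6.65 and 6.49 with SHP2 miR2 and 5.39 and 5.05 with SHP2 miR1, against 8.00 and 8.35 with CTRL miR, and fell by 2.28 (adjusted p = 0.000209). TFAP2C, an AP-2 transcription factor of epithelial cells and the other regulator that was higher, had 0.77 (adjusted p = 0.0379) and was named after its values were seen. The NOTCH1 call was lost without either CTRL miR array (adjusted p = 0.0962 and 0.143), and the OVOL1 call without any of 5 of the 6 arrays, with an adjusted p of up to 0.275 without the second CTRL miR array. TP63 was not analysed here.

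The epithelial identity of the cultures was read from a list of 10 measured genes. On average 1 was higher (KRT14) and 1 was lower, where 1.53% of all genes were higher and 2.67% were lower. The list includes the keratins KRT5, KRT14 and KRT18, so it is in part the keratin result itself. CDH1, the adhesion protein E-cadherin, differed by 0.00 (adjusted p = 0.992) and averaged 7.95 with SHP2 miR2, 7.85 with SHP2 miR1 and 7.89 with CTRL miR. LAMB3, a chain of the basement membrane laminin, fell by 1.07 on average (adjusted p = 0.00314). SHP2 miR2 alone gave -0.55, which did not pass (adjusted p = 0.208), and SHP2 miR1 alone gave -1.60 (adjusted p = 0.000603). Markers of fibroblasts (9 genes), leukocytes (7), melanocytes (5) and hair follicle matrix (6) had no member past the threshold in limma averaged over both SHP2 miRs. At an unadjusted p under 0.05, 0, 2, 0 and 1 of them were higher and 0, 1, 0 and 0 lower. Of all 18377 genes, 1528 were higher and 2311 lower at that unadjusted threshold. With SHP2 miR1 alone 2 leukocyte markers passed, CD14, also found on some epithelial cells, higher by 1.08 (adjusted p = 0.0366) and CD68, a lysosomal protein, lower with a difference of -0.71 (adjusted p = 0.0272). Both were named after their values were seen. Of 7 endothelial markers, on average, PECAM1 was higher by 0.60 (adjusted p = 0.0422) and TEK fell by 1.38 (adjusted p = 0.000867). The PECAM1 call was lost without any single array (adjusted p of up to 0.327) and with its probe sets averaged (0.27, adjusted p = 0.358). On average CD14 differed by 0.96 (adjusted p = 0.0505). With SHP2 miR2 alone 0 of the 7 endothelial markers passed. At an unadjusted p under 0.05, 1 was higher and 1 lower, beside 944 and 1081 of all 18377 genes. With SHP2 miR1 alone 2 endothelial markers passed as higher and 1 as lower. The summed linear level of the leukocyte list was 830 to 1011 with SHP2 miR2 and 693 to 813 with SHP2 miR1, against 908 to 934 with CTRL miR. That of the endothelial list was 253 to 260 with SHP2 miR2 and 252 to 253 with SHP2 miR1, against 265 to 288 with CTRL miR. Such sums follow the brightest genes. On average 6 of the 7 endothelial markers had a positive difference, all except TEK. The sum of the fibroblast list was 644 to 690 with SHP2 miR2 and 579 to 602 with SHP2 miR1, against 616 to 639 with CTRL miR. The part of these markers in the keratin results was not tested.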

How the data were processed

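The authors deposited 1 processed log2 value per probe set and array. The range of the values, not a label, gave the base of 2. R 2.10 and oligo 1.8 are named per the submitters' processing notes. The sources used here do not name the background correction, the normalization or the build. Medians of the arrays lay between 5.23 and 5.35, and arrays of a group correlated at 0.985 to 0.986 across genes. Having 2 arrays a group limits the precision of every value.

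Of 28869 probe sets, 19310 had 1 symbol in the platform annotation, 1752 had several (2 of these hold a keratin gene and were not used) and 7807 had none. Of those with 1 symbol, 19279 matched RefSeq by gene identifier and 0 symbols needed updating. Keeping the probe set of highest mean left 18377 genes. A probe set was called dim at a mean of 4.76 or less, the 40th percentile. All 6 arrays entered 1 linear model of the 3 groups in limma 3.58.1, run in R 4.3.3 (lmFit, eBayes, 3 residual and 6.10 prior degrees of freedom). P-values were two-sided and adjusted over all genes by Benjamini-Hochberg, with a threshold of 0.05. The fit was tested on simulated data. The keratins, classes and lists were chosen with earlier results of these data known. Keratins named with values were those that passed in any contrast, a set list of basal, luminal, stress and suprabasal members, and the 2 hair keratins of highest mean. From other lists up to 4 passing members were named, with VIM and CDH1. Alternatives were a mean-variance trend, a robust prior, leaving out dim genes, quantile normalization, cyclic loess, median centring, averaging probe sets, models restricted to the arrays being compared, a replicate block and leaving out each array. Promoters are those of the RefSeq table of GRCh38.p14.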

Additional observations from a re-analysis of the deposited data

Results flagged for a closer look

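These 4 genes differed between the SHP2 miRs by a test of the difference itself in limma, where 35 of 18377 genes did. KRT15 was lower with SHP2 miR2 than with SHP2 miR1 (log2 difference -1.48, adjusted p = 0.00545). PRDM1 was higher with SHP2 miR2, with a difference of 1.35 (adjusted p = 0.0379). LAMB3 was higher with SHP2 miR2 by 1.05 (adjusted p = 0.0421). TEK was higher with SHP2 miR2 by 1.57 (adjusted p = 0.00499), and its SHP2 miR1 mean of 4.41 lay below the dim value of 4.76. The PRDM1 and LAMB3 calls were lost without any single array (adjusted p of up to 0.217), and the TEK call without the first SHP2 miR2 array (adjusted p = 0.0735). Groups of 2 arrays were not searched for outlying arrays.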

How the results depend on the processing

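KRT10, KRT15 and KRT16 kept their calls in the average comparison under all 14 alternatives. The count of keratins that were higher was 6 on average, 6 with SHP2 miR1 and 5 with SHP2 miR2 under a mean-variance trend, which called 1793 genes on average instead of 771, 2786 instead of 1581 with SHP2 miR1, 367 instead of 68 with SHP2 miR2 and 446 instead of 35 between the SHP2 miRs. Under that trend 1 keratin was lower with SHP2 miR1, and 2 were lower with SHP2 miR2 than with SHP2 miR1. When single arrays were left out, 3 to 4 keratins were higher on average, 3 to 4 with SHP2 miR1 and 0 to 3 with SHP2 miR2, and 0 to 1 were lower with SHP2 miR2 than with SHP2 miR1. Over all genes 108 were then called on average without the second CTRL miR array. An array left alone in its group borrowed its spread from the other groups, by assumption. In those fits the average difference ranged from -0.051 to 0.32 for KRT13, -0.083 to 0.19 for KRT1, -0.14 to 0.24 for KRT80 and -0.040 to 0.047 for CDH1. KRT1 had -0.010 with cyclic loess, and CDH1 had -0.034 with array medians centred. The cause of these changes was not tested. With the replicate number as a block, 4 keratins were higher on average, 4 with SHP2 miR1 and 3 with SHP2 miR2, where KRT14 had an adjusted p of 0.0632. Deviations of same-numbered arrays correlated at 0.0134 (SHP2 miR2 and SHP2 miR1), 0.140 (SHP2 miR2 and CTRL miR) and 0.0669 (SHP2 miR1 and CTRL miR), so the numbers were not shown to pair the arrays. With only the groups compared, KRT14 was lost for SHP2 miR2 (adjusted p = 0.0653). Keratins near the dim end of these arrays may be limited in what fold they can show.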
